A study of Mus musculus with 24 samples.

Results

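The PEA3 factors Etv1, Etv4 and Etv5 are a subfamily of the ETS transcription factors, and their transcripts were followed in testis, spleen and brain of Smc6 mutant and control mice. Every probe whose symbol in the platform annotation was Etv1, Etv4 or Etv5 was taken, which gave 4 of the 25697 probes of the array for 3 of its 16593 genes. Etv1 had 2 probes, ILMN_2643915 and ILMN_2649709. Etv4 had 1, ILMN_2778111, and Etv5 had 1, ILMN_2938047. The members were chosen by the brain values, because both Etv1 probes were higher in mutant than in control brain. The brain differences of the members are therefore given as a description with no test. Etv5 was tested in testis, in spleen and in its levels over tissues. Etv1 and Etv4 were at or near background outside brain, so their levels are described only.

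Smc6 encodes part of the SMC5/6 complex, which acts in DNA repair. The study compared tissues of male Smc6 mutants, homozygous per the series description, with those of control mice, all of a mixed C57BL/6J, 129ola and FVB background, with 4 mutants and 4 controls per tissue, 1 animal per array and 24 arrays in all. At 12 weeks the same 8 animals gave testis and spleen, where the mouse identifiers mark 2 controls as wild type and 2 as heterozygous, and brain came from other animals, all controls wild type, at 19 weeks. The labels do not state what the mutation is or which cells carry it, and brain was taken as 1 tissue, so a smaller number of cells of a type and less RNA per cell cannot be told apart.

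PEA3 factors bind DNA at sites with a GGAA core and act mostly as activators. In many tissues their genes are induced by receptor tyrosine kinases, FGF receptors above all, through RAS and ERK, and the factors are held down by the repressor Capicua and by the ubiquitin ligase COP1. In the nervous system Etv1 is known from the sensory neurons that sense muscle stretch, from cortical layer 5 neurons and from maturing cerebellar granule cells. Etv4 is known from motor neuron pools, and Etv5 from Sertoli cells and the spermatogonial stem cells whose maintenance it serves.

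The RefSeq promoter table (build GRCm38.p6) held 2 start sites for Etv1 and 2 for Etv5, and Etv4 was not matched in it. The 250 bases before a start are printed for both Etv1 starts, because Etv1 was the member that stood apart in brain, and for the start of Etv5 that is richer in CG, because Etv5 was the member measured in every tissue. Capitals mark CG dinucleotides, and each sequence runs 5′ to 3′ on the strand of the gene.
Etv1, chr12:38779832-38780081, plus strand: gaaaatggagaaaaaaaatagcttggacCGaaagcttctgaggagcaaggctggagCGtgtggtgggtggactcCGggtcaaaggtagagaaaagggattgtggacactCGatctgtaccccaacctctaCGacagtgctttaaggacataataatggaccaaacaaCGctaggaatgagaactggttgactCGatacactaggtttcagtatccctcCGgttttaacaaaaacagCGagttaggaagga
Etv1, chr12:38783461-38783710, plus strand: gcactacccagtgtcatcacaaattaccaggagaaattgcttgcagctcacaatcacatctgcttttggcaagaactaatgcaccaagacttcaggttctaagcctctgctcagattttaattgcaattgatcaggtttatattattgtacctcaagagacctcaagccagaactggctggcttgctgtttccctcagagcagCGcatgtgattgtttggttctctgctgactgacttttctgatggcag
Etv5, chr16:22439571-22439820, minus strand: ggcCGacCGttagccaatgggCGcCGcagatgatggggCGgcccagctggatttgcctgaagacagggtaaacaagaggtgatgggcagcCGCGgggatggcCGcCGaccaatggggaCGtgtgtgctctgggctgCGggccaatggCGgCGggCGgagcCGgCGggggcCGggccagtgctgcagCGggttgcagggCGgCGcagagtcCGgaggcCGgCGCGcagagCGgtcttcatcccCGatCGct
The Etv1 windows held 9 and 1 CG dinucleotides at 46.4% and 44.4% G plus C, against a median of 6 and 52.4% over all 32851 windows of this length in the table. The Etv5 window shown held 27 at 71.2%, and its other window held 18 at 62%. The motif AGGAAG, a PEA3-type site, was searched on both strands and found once among the 4 windows of the members, 8 bases before the start in the first Etv1 window shown, where 29.5% of all windows hold at least 1 match. The Capicua octamers TGAATGAA and TGAATGGA and the cyclic AMP response element TGACGTCA were in none of the 4 windows and in 1.08%, 1.01% and 1.55% of all windows. Such a match describes letters only, and which start was used in these tissues was not measured.

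The arrays carried the labelled tissues. The 8 brain markers, such as Syt1 and Mbp, were together at a median log2 intensity of 10.97 to 11.50 in the brain arrays and at most 4.78 elsewhere, although the Snap25 and Nefl probes were not detected even in brain. Between 12049 and 14234 probes were detected per array at a detection p under 0.05. Pancreatic enzyme transcripts set apart testis mutant replicate 1, with a summed linear level of 2542 against 303 to 644 in the other testis arrays, and spleen mutant replicates 1 and 2, with 15122 and 7683 against 388 to 690. The Smc6 probe itself differed by -0.04, 0.19 and -0.03 on the log2 scale between mutants and controls in testis, spleen and brain (limma adjusted p = 1.00, 1.00 and 0.931), so it did not separate the genotypes.

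In brain, both Etv1 probes read higher in each of the 4 mutants than in any of the 4 controls, while Etv4 and Etv5 were not set apart. The values are log2 intensities normalized over the 8 brain arrays. With ILMN_2643915, controls 1 to 4 read 6.15, 6.44, 6.37 and 6.23, and mutants 1 to 4 read 7.25, 6.93, 7.08 and 7.00. The lowest mutant stood 0.49 above the highest control. The means were 6.30 ± 0.13 and 7.07 ± 0.14 (SD, n = 4 each), a difference of 0.77 (SE 0.09) or 1.70-fold.

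With ILMN_2649709 the controls read 6.26, 6.56, 6.60 and 6.53 and the mutants 7.41, 7.12, 7.14 and 6.99. The groups again did not overlap, with a gap of 0.39. The means were 6.49 ± 0.16 and 7.16 ± 0.18 (SD, n = 4 each), a difference of 0.68 (SE 0.11) or 1.60-fold. Mutant replicate 1 was the highest array and control replicate 1 the lowest by either probe. Groups of 4 and 4 did not overlap for 6.66% of the 14027 brain probes, and 12 probes, 0.0855% of them, differed at least as far as ILMN_2643915, against 16 probes, 0.114%, for ILMN_2649709. The probes were chosen on these values, so the shares describe them and support nothing.

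Etv4 in brain read 5.98, 6.11, 6.39 and 6.17 in the controls and 5.94, 6.16, 6.05 and 6.40 in the mutants. The groups spanned the same range, with a difference of -0.03 (SE 0.11). Etv5 read 7.73, 7.70, 7.90 and 7.75 in the controls and 8.04, 7.76, 7.84 and 7.81 in the mutants. Its groups overlapped as well, with mutant replicate 1 the highest array, and the difference was 0.09 (SE 0.08). These values are descriptions like those of Etv1, and they do not exclude a small difference in Etv4 or Etv5.

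**Figure D1:**
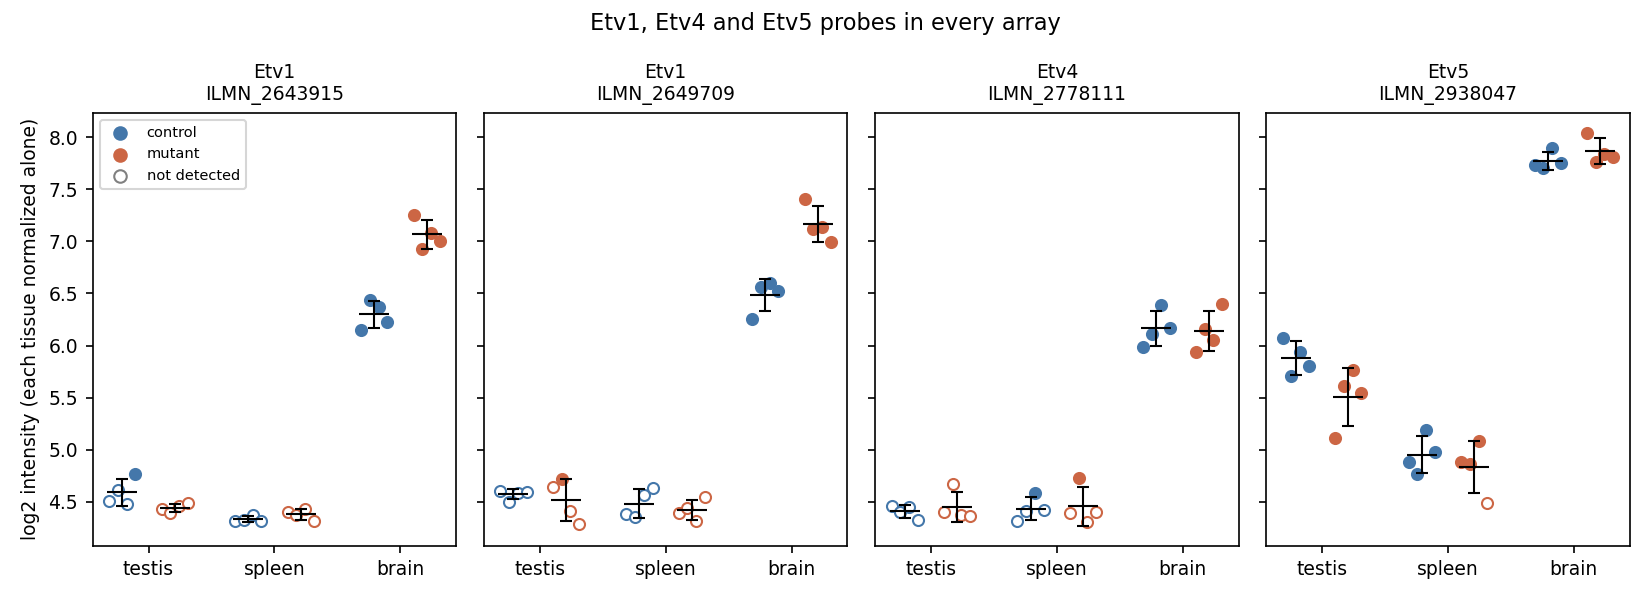
Log2 intensity of each PEA3 probe in every array, by tissue, each tissue normalized alone (controls blue, mutants orange, open points not detected at p under 0.05, black bars mean and SD, n = 4). Both Etv1 probes show mutants from 6.93 upward in brain and controls no higher than 6.60, while the Etv4 and Etv5 groups overlap.

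Over the whole brain comparison 4 of 14027 probes passed an adjusted p under 0.05 in limma, which is 0.0285%, and since this comparison chose the members, nothing is read from it for them. Just inside the threshold lay Sh3gl2 (0.61, SE 0.08) and Tsc22d3 (0.95, SE 0.13), and just outside it lay a probe with no symbol, ILMN_2691014 (-0.53, SE 0.07), and the other Sh3gl2 probe (0.60, SE 0.09). The number of calls turned on single arrays: it fell to 0 when control 3, control 4, mutant 1 or mutant 3 was left out, to 1 when mutant 4 was, and to 3 when control 1, control 2 or mutant 2 was. With any 1 array left out, the Etv1 difference was 0.71 to 0.82 for ILMN_2643915 and 0.60 to 0.74 for ILMN_2649709. These arrays chose the probes, so the ranges describe the difference and do not support it.

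The brain arrays also differed in brightness. The upper quartile of the deposited intensity was 177 ± 8.27 in controls and 152 ± 7.24 in mutants (SD, n = 4 each), with an exact permutation p of 0.0286, the smallest this design allows, and 0.0857 after adjustment over the 3 tissues. Etv1 was higher in the dimmer group. With array brightness as a term in the model the difference was 1.08 for ILMN_2643915 and 0.92 for ILMN_2649709. Without the detection p in the background correction it was 0.53 and 0.48. The mutant and control groups did not overlap then, nor in the authors' deposited normalized values. All of these settings use the arrays that chose the probes, so they add no support. The brightness ranges of the groups did not overlap, at 169 to 189 in controls and 145 to 162 in mutants, and the part of brightness in the Etv1 difference was not tested further.

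**Figure D2:**
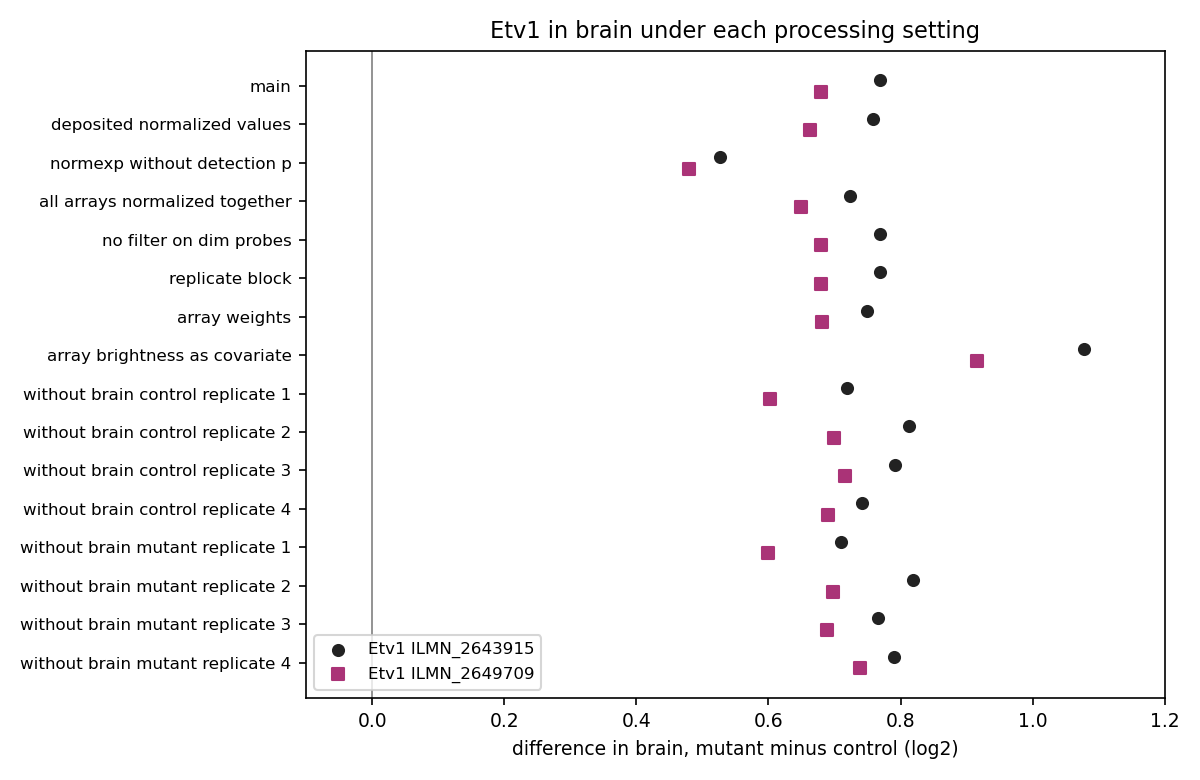
Mutant minus control difference in brain (log2) of the Etv1 probes under each processing setting and with each array left out. All points lie above 0, from 0.48 without the detection p to 1.08 with array brightness as a covariate. The same arrays chose the probes, so the points are a description.

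The Etv1 probes were then set against each other. Their levels over all 24 arrays had a Pearson r of 0.976, which the step from brain to the other tissues sets. After each group mean was taken away, r was 0.836 over the 8 brain arrays and 0.129 over all 24. Within brain the probes ranked the animals of a group much alike, while over all arrays, most of which are at background for Etv1, they shared little. The points share arrays and RNA extracts, so these values are descriptions.

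In testis neither Etv1 nor Etv4 could be compared. Etv1 was detected on 1 of 8 arrays by each probe, control replicate 4 for ILMN_2643915 and mutant replicate 2 for ILMN_2649709, and Etv4 on 0 of 8. Their log2 intensities lay between 4.28 and 4.77. A probe at background gives a bound on its own signal and does not show that the transcript was missing.

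Etv5, detected on all 8 testis arrays, read 6.08, 5.71, 5.94 and 5.81 in the controls and 5.11, 5.61, 5.76 and 5.54 in the mutants. The mutants lay mostly lower, with mutant replicate 1 the lowest array, and the groups overlapped because control replicate 2 was below mutant replicate 3, where 2.71% of testis probes had groups that did not. The means were 5.88 ± 0.16 and 5.51 ± 0.28 (SD, n = 4 each). The difference was -0.38 (SE 0.14, 95% interval -0.67 to -0.08) with a limma p of 0.0169. After adjustment over the 13152 testis probes, of which 0, or 0%, passed (629 had an unadjusted p under 0.05), the adjusted p was 1.00. The difference therefore did not pass the test. Without mutant replicate 1, the array with the pancreatic transcripts, it was -0.24, and it ran from -0.48 with the authors' deposited normalized values to -0.20 with normexp without the detection p. All 10 measured pancreatic genes, of 18 on the array, lay above 0 in testis mutants, with summed levels of 304 to 621 in controls and 303 to 2542 in mutants, and their part in the Etv5 difference was not tested beyond leaving that array out.

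Genes of the cells in which Etv5 works in testis were read beside it. Of 14 spermatogonial stem cell genes on the array 7 were measured, none passed the test, and 2 lay above 0 and 5 below. Their median difference was -0.08 against 0.00 over the 9271 measured genes, of which 51.2% lay above 0. Uchl1, a ubiquitin hydrolase used as a marker of spermatogonia, was at -0.15, Id4, an inhibitor of DNA binding found in stem cells, at -0.18, and Sall4, a zinc finger factor of undifferentiated spermatogonia, at -0.15. The 2 above 0 were Lhx1 at 0.14 and Pou5f1 at 0.07. Of 13 Sertoli cell genes 11 were measured and none passed, with a median of -0.03. Inhbb, a subunit of inhibin and activin, was at -0.25, Rhox5, an androgen-driven homeobox gene, at 0.13, and Cldn11, a tight junction protein, at 0.13. Gdnf, the Sertoli cell ligand upstream of Etv5 in stem cells, was at -0.17 (SE 0.13).

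In spleen Etv1 was detected on 0 of 8 arrays by either probe and Etv4 on 2 of 8, so neither was tested. Etv5 was detected on 7 of 8 arrays. It read 4.88, 4.77, 5.18 and 4.97 in the controls and 4.88, 4.87, 5.09 and 4.49 in the mutants. The groups overlapped, as for all but 1.33% of spleen probes, and mutant replicate 4, the array without detection, was the lowest. The difference was -0.12 (SE 0.15, 95% interval -0.45 to 0.21, limma adjusted p = 1.00), where 0 of 12449 spleen probes, or 0%, passed and 216 had an unadjusted p under 0.05. It was 0.01 against the wild-type controls alone, -0.15 without mutant replicates 1 and 2, which carried pancreatic transcripts, and -0.01 without mutant replicate 4. With the authors' deposited normalized values it was -0.42 and with normexp without the detection p -0.05. All 9 measured pancreatic genes lay above 0 in spleen mutants, with summed levels of 388 to 622 in controls and 474 to 15122 in mutants.

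Whether the brain difference of Etv1 differs from that in other tissues could not be tested, since both probes were at background in testis and spleen. For the same reason no joint account of the 3 members across tissues can be given for mutants and controls.

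The levels over tissues were read from the control groups after all 24 arrays were normalized together, with animal as a random block in limma. All 3 genes were highest in brain. Over all 17735 probes tested, 80.4% differed between brain and testis, 44% being higher in brain. Between brain and spleen 74.3% differed, 35.9% being higher and 38.3% lower in brain, so a difference between tissues is common on this array. The share of probes whose tissue groups did not overlap was not counted, so non-overlap below is a description. The brains came from other and older animals, so tissue and animal set cannot be told apart, and the brain control arrays are those of the comparison above.

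Etv1 in control brain read 5.71, 5.97, 5.91 and 5.78 by ILMN_2643915 and 5.81, 6.08, 6.12 and 6.05 by ILMN_2649709. Every brain array lay above every testis and spleen array by either probe. Because the other tissues were at background, the folds are bounds, set by the dimmest signals that were still detected there. ILMN_2643915 was at least 2.10-fold higher in brain than in testis and at least 1.95-fold higher than in spleen. ILMN_2649709 was at least 2.36-fold and 2.19-fold higher. Both probes passed the detection filter only through the brain arrays, where they are high, so no p is given. Testis and spleen cannot be ordered for Etv1.

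Etv4 showed the same order, brain above the rest. Control brains read 5.56, 5.68, 5.93 and 5.73. This was at least 1.93-fold above testis and 1.79-fold above spleen. The Etv4 probe also passed the detection filter only through the brain arrays, so no p is given. Testis and spleen were again below or near background and have no order between them.

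Etv5 had a measured level in all 3 tissues. Control brains read 7.24, 7.20, 7.40 and 7.25, control testes 6.18, 5.80, 6.04 and 5.91, and control spleens 5.28, 5.12, 5.69 and 5.42. The 3 groups did not overlap, and brain was the tightest. Brain exceeded testis by 1.29 (SE 0.16) or 2.44-fold and spleen by 1.89 (SE 0.16) or 3.71-fold (limma adjusted p = 6.78e-08 and 8.79e-11). Testis exceeded spleen by 0.60 (SE 0.16) or 1.52-fold (limma adjusted p = 0.00143, where 75.4% of probes differed between these tissues and 33.6% were higher in testis). The order brain, testis, spleen held under every setting tried.

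The joint normalization fixes part of these sizes. The median of all probes moved by 0.12 between brain and testis with the quantile method, and by -0.25 with scaling to the 75th percentile of each array, which also moved it by -0.61 between brain and spleen and -0.39 between testis and spleen. Under that scaling the bounds for brain over spleen were 1.43-fold and 1.63-fold for the Etv1 probes and 1.30-fold for Etv4. Relative to the shift, the brain differences of Etv5 on the log2 scale were 1.52 over testis and 2.29 over spleen.

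Most of the other ETS factors were highest in other tissues. Of the 15 measured over the 24 arrays, 9 had their highest control mean in spleen, 3 in testis and 3 in brain. The 9 include Etv6, which differed between no tissues (limma adjusted p from 0.123 to 0.599). They also include Elf3, whose spleen and testis levels did not differ (limma adjusted p = 0.127). Brain led for Erf, a repressor that ERK releases from DNA (6.22 ± 0.12, SD, n = 4), for Ets2 (9.99) and for Etv3 (6.25), whose spleen level of 6.16 lay within the spread (limma adjusted p = 0.628). Ets1, a lymphocyte factor, was at 12.56 in spleen and 7.22 in brain, and Spic, the factor of red pulp macrophages, was at 10.18 in spleen and was not detected in the controls of the other tissues. Etv2, known for blood and vessel development, was at 7.95 in testis and was detected on 0 of 4 control arrays in spleen and in brain. Between brain and spleen, 2 of 15 other ETS factors passed as higher in brain and 10 as lower. Of the PEA3 factors, Etv5 passed as higher, while Etv1 and Etv4 had entered that test only through brain. Some of the other factors, such as Erf and Spic, were likewise detected in the controls of a single tissue.

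**Figure D3:**
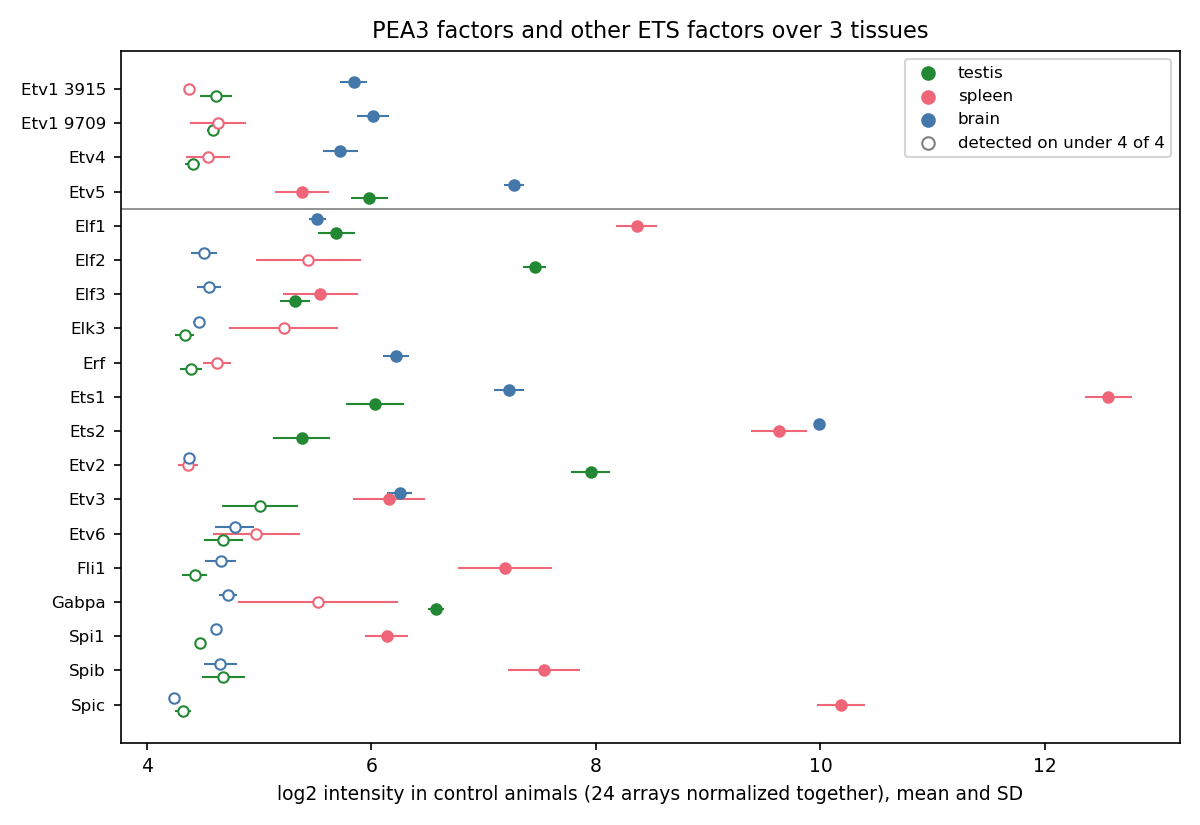
Log2 intensity in control animals over the 3 tissues, all 24 arrays normalized together (mean and SD, n = 4; open symbols were detected on fewer than 4 arrays). The PEA3 probes above the line peak in brain, from 5.72 for Etv4 to 7.27 for Etv5, and Ets1 and Spic peak in spleen. Levels compare tissues within a probe, not probes with each other.

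The genes whose levels ran closest to each member over the 24 arrays were found by Pearson r, which the 3 tissues largely set. For Etv1 (ILMN_2649709) they were Dnm1, the neuronal dynamin of synaptic vesicle recycling (r = 0.981), Baalc (0.978), Gfap, the astrocyte filament protein (0.977), Glrb, the beta subunit of the glycine receptor (0.977), and Prkcz, an atypical protein kinase C (0.976). Their own differences in brain were 0.66, 0.44, 0.37, 0.26 and 0.34, none past the test (limma adjusted p from 0.0769 to 0.312). The brain arrays entered the r by which these genes were picked, so the sign of these differences is partly set by the choice. For Etv4 they were Tpm2 (0.980), Rarb, Rem2, Acta1 and Krt80, and for Etv5 Zmat3 (0.975), Cox6c, Rtn1, Trak1 and Tmx4. Around the group means the genes closest to Etv1 were Elovl6 (0.771), Aifm2, Tspan9, Nacc2 and Wdr62. In brain Elovl6 differed by -0.05, Tspan9 by 0.02 and Nacc2 by 0.10, and the probes of Aifm2 and Wdr62 were not tested there. Most of the 24 arrays are at background for Etv1. By this measure its own probes had an r of only 0.129 with each other, so these ranks are a description.

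The pathway around the PEA3 genes was read in brain from its ligands down. No gene of these lists passed the test in any tissue. The median of all 9745 measured genes in brain was -0.01, with 45.5% of them above 0. Of 23 FGF receptors and ligands on the array 11 were measured in brain, 5 above 0 and 6 below, with a median of -0.03. Fgf9, a ligand made by neurons, was at 0.32 (SE 0.10, limma adjusted p = 0.254). Fgf1 was at 0.23 (SE 0.07, limma adjusted p = 0.243) with groups that did not overlap, as for 6.66% of all brain probes. Fgf7 was at -0.20. The summed linear level of the list was 1416 to 1490 in controls and 1533 to 1637 in mutants. Such sums did not overlap between the groups for 5 of the 14 lists measured in brain besides the PEA3 genes, higher in mutants for the FGF list and the spleen markers (7600 to 9580 against 9643 to 12683, read by Hba-a1 alone) and lower for other ETS factors (1886 to 1963 against 1773 to 1867), general brain markers (33448 to 35212 against 32333 to 33287) and layer 5 genes. These sums were not tested.

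Other receptors and ligands upstream of PEA3 factors were measured for 9 genes with a median of 0.00. Bdnf, the neurotrophin, was at 0.20, Ntrk2, its receptor, at 0.12, and Ret, the receptor for GDNF ligands, at -0.21. The 11 measured genes of the RAS to ERK cascade had a median of -0.03. Frs3, a docking protein of FGF receptors, was at 0.21, Grb2, the adaptor that brings SOS to receptors, at 0.11, and Nf1, the RAS GTPase activator, at -0.19.

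Genes that ERK induces were the nearest readout of the pathway. Of 17 on the array 13 were measured, 5 above 0 and 8 below, with a median of -0.01. Spred2, an inhibitor of RAF activation, was at -0.32 (limma adjusted p = 0.372), Ier3, an early response gene, at -0.20, and Fos, the AP-1 subunit, at 0.19. Among the 7 measured repressors and degraders of PEA3 factors, 2 lay above 0 and 5 below, with a median of -0.11. Cop1, the ligase that marks PEA3 proteins for breakdown, was at -0.25 (SE 0.10, limma adjusted p = 0.366). Atxn1, the partner of Capicua, was at -0.29 (SE 0.12, limma adjusted p = 0.372). Trib2, a COP1 adaptor whose gene lies between Smc6 and Etv1 on chromosome 12, was at -0.21. The highest of this list was at 0.16. The other ETS factors measured in brain, 9 of 21, had a median of -0.02. Ets1 was lowest at -0.34 (SE 0.09, limma adjusted p = 0.205) with groups that did not overlap, as for 6.66% of all brain probes. Etv3 was at -0.18 and Elf3 at 0.17.

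In testis and spleen the medians of the same lists ran from -0.08 to 0.03 in testis and from -0.19 to 0.05 in spleen, the lowest from a list with 3 measured genes, against 0.00 and -0.01 over all genes. In testis Il17rd, a membrane inhibitor of FGF signalling, was at 0.35 (limma adjusted p = 0.976) and Egr1, an immediate early factor, at -0.43 (SE 0.19), while Ets2 was at 0.33 and Elf2 at -0.24. In spleen Dusp4, an ERK phosphatase, was at -0.32 (SE 0.16) and Fgf22 at -0.28.

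Etv1 transcripts are concentrated in certain regions of the brain, so genes of those regions were listed beside it. Of 10 measured cerebellar genes, of 13 on the array, 7 lay above 0, where 45.5% of all 9745 measured genes did. The cerebellar genes had a median of 0.07 and summed linear levels of 7347 to 8254 in controls and 7153 to 8420 in mutants. Cbln3, Fat2 and Calb1 were not measured. Gabra6, the granule cell subunit of the GABA-A receptor, was at 0.59 (SE 0.13, limma adjusted p = 0.130) with groups that did not overlap. Zic4, a zinc finger factor of granule cells, was at 0.20 (SE 0.07, limma adjusted p = 0.312), also without overlap, and Neurod1 was at 0.26. Groups did not overlap for 2 of the 10 genes, against 6.66% of all brain probes. The lowest of the list was Zic2 at -0.37 (SE 0.23), and Cbln1 and Slc1a6 lay below 0 as well, at -0.08 and -0.09. Of 11 measured olfactory bulb genes, of 14, 9 lay above 0, against the same 45.5% of all genes. The bulb genes had a median of 0.11 and sums of 3245 to 3983 against 3362 to 4416. Doc2g, a gene of mitral and tufted cells, was at 0.43 (SE 0.23), Meis2 at 0.21 and Dlx1 at 0.20. The lower of the 2 below 0 was Sp8 at -0.07. The part of dissected region in the Etv1 difference was not tested.

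Of 7 measured layer 5 genes, of 10 on the array, 3 lay above 0 and 4 below, with a median of -0.04 against -0.01 over all genes, and their sums were 4219 to 4416 in controls and 3844 to 4191 in mutants, without overlap. Bcl11b, the factor that specifies subcortical projection neurons, was at -0.23 (SE 0.08, limma adjusted p = 0.278), Crym at -0.13 and Vat1l at -0.13. The highest of the 3 layer 5 genes above 0 was at 0.10. Of the 6 measured general brain markers, of 8 on the array, 3 lay above 0 and 3 below. Gfap was at 0.37, Camk2a at -0.26 and Slc17a7, the cortical glutamate transporter, at -0.36 (limma adjusted p = 0.175, 0.222 and 0.255). The groups of these 3 did not overlap, where 6.66% of all brain probes had groups that did not.

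**Figure D4:**
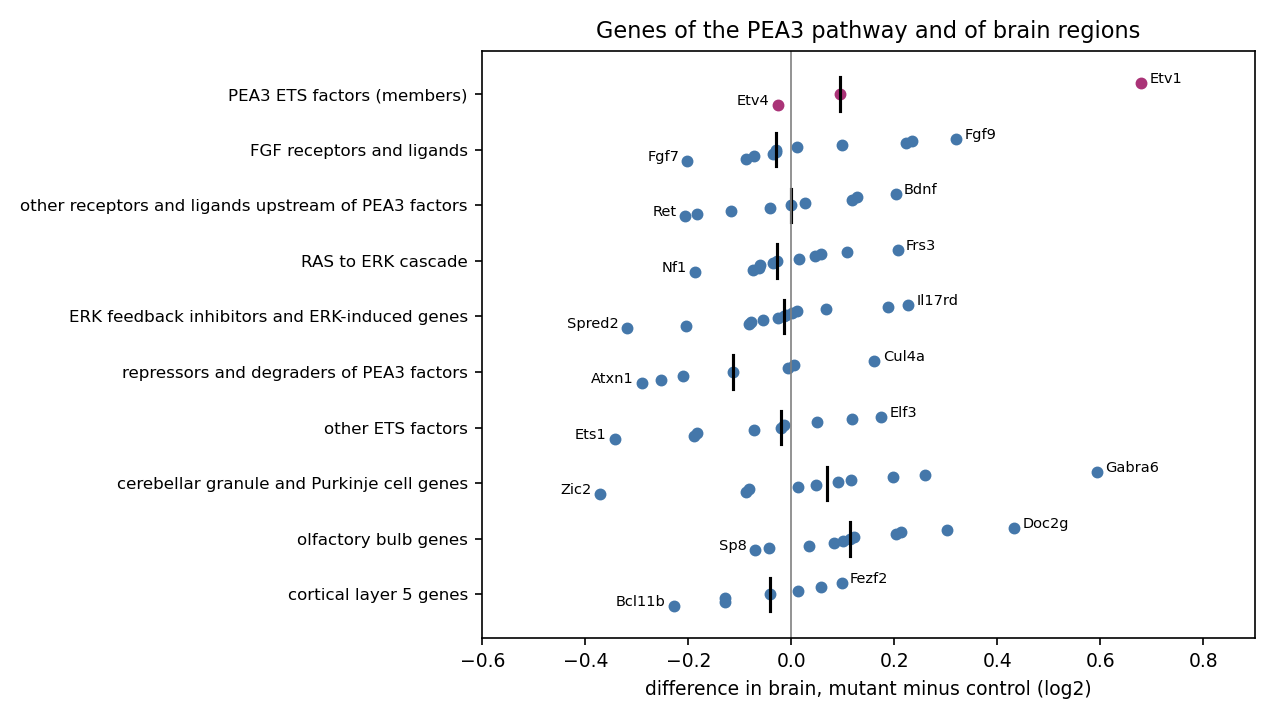
Mutant minus control difference in brain (log2) of each measured gene by list, 1 point per gene, black bars marking list medians and names marking the highest and lowest gene. Etv1 at 0.68 stands to the right of every other gene plotted, Gabra6 at 0.59 comes next, and the list medians lie between -0.11 and 0.11. Etv1 was chosen by its brain values, so its place is a description.

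Etv1 lies on chromosome 12, as does Smc6, while Etv4 lies on chromosome 11 and Etv5 on chromosome 16. The gene table placed 128 protein-coding genes between Smc6 and Etv1, 77 of them on the array. In brain 52 were measured, and their median absolute difference was 0.11 against 0.08 over all genes and 0.08 over the rest of the chromosome. A difference of at least 0.4, a size chosen after the values were seen, was reached by 4 of the 52, or 7.69%, against 0.975% of all 9745 genes and 1.09% of the 276 genes on the rest of the chromosome. By an unadjusted limma p under 0.05 the shares lay closer together, at 6 of 52, or 11.5%, against 9.92% of all genes and 9.06% of the rest of the chromosome. The 4 genes that reached 0.4 were Twistnb, Trappc12, Adi1 and Pik3cg. Twistnb (1.41, SE 0.35) is a subunit of RNA polymerase I, and Trappc12 (-1.06, SE 0.20) a part of the vesicle tethering complex TRAPP. Adi1 (-0.43, SE 0.20) is an enzyme of methionine salvage, and Pik3cg (-0.42, SE 0.16) a catalytic subunit of phosphoinositide 3-kinase. None of the 4 passed the test (limma adjusted p = 0.159, 0.0925, 0.438 and 0.314). In testis 0 of 47 and in spleen 0 of 45 measured genes of this stretch reached 0.4.

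Of the measured genes next to Etv1, the one that lay farthest from 0 was on the side towards Smc6. There Sostdc1, a secreted inhibitor of BMP and WNT signalling, was at 0.34 (SE 0.10, limma adjusted p = 0.218), followed by Ankmy2 at -0.07 and Bzw2 at -0.16. On the other side Lsmem1 was at 0.10, Zfp277 at -0.05, Dock4 at -0.01 and Lrrn3 at -0.08. The strains behind each animal's chromosome 12 were not given in the sources used here, so an inherited stretch around the Smc6 mutation and an effect of the mutation cannot be told apart for Etv1.

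**Figure D5:**
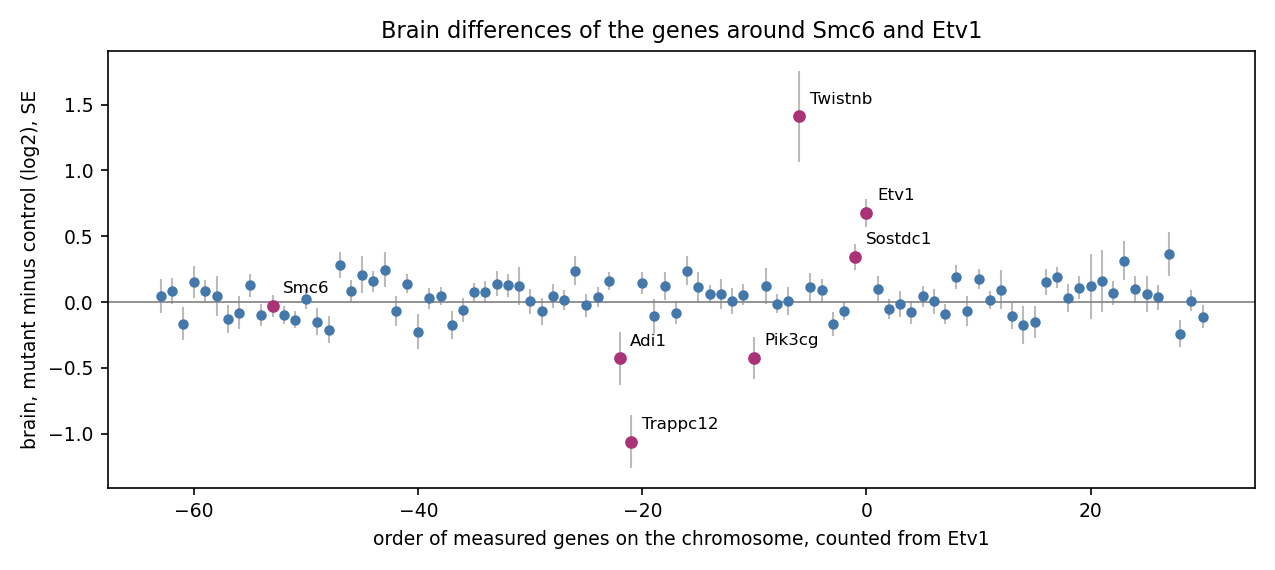
Mutant minus control difference in brain (log2, with SE) of the measured genes around Smc6 and Etv1, in their order along the chromosome, counted from Etv1. Etv1 at 0.68, Twistnb at 1.41 and Trappc12 at -1.06 stand away from a band around 0, and Smc6 itself is at -0.03.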

How the data were processed

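Total RNA was labelled with biotin and hybridised to Illumina MouseRef-8 arrays, 1 animal per array, per the labels' protocols. The authors deposited 1 table of linear intensity values with the background subtracted and a detection p-value per probe and array, per the file headers, and a table of normalized intensity values whose method is not given in the sources used here. GenomeStudio 2011.1 is named in the submitters' processing notes.

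Intensities were corrected and quantile-normalized with neqc (offset 16, background inferred from the detection p-values) of limma 3.58.1 in R 4.3.3, for the 8 arrays of each tissue and, for levels over tissues, for all 24 together. The correction compresses dim probes, so their folds understate the change. Probes with a detection p under 0.05 on 4 or more arrays were tested, 13152 of them in testis, 12449 in spleen, 14027 in brain and 17735 over all tissues. Differences are mutant minus control from lmFit and eBayes with the moderated SE. Adjustment was by Benjamini-Hochberg over all probes of a comparison, with 0.05 as the threshold. Of the 25697 probes 23978 had 1 gene symbol, 0 several and 1719 none, and 0 symbols changed on updating. A gene of a list was read by its detected probe of highest mean. Gene order and promoter windows came from RefSeq tables of GRCm38.p6.

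The members and the gene lists were chosen with earlier results of these data known. Besides every member probe and Smc6, the genes named are up to 3 per list and tissue with the smallest p, the 5 most correlated with each member, and the probes next to the threshold. The 4 genes named for a difference of at least 0.4 on chromosome 12, the neighbours of Etv1 and the other ETS factors named for their tissue levels were chosen after their values were seen. Replicate numbers name different animals, and same-numbered mutants and controls deviated together with r from -0.33 to 0.30, so no pairing was used. The number of arrays limits the precision. No slide or scan date was used here, so neither was tested as a batch.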

Additional observations from a re-analysis of the deposited data

How the results depend on the processing

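In brain the number of probes past the threshold, 4 in the analysis reported, was 1 with the deposited normalized values, 64 with normexp without the detection p, 32 with all arrays normalized together, 11 with array weights, and 0 with no filter on dim probes, with the replicate block or with array brightness as a covariate. Leaving out 1 brain array gave 0 to 3. Beside the counts of 0 in limma, 2401, 1887 and 814 probes had an unadjusted p under 0.05 with no filter, the block and the brightness covariate. Etv1 moved to 0.53 (ILMN_2643915) and 0.48 (ILMN_2649709) with normexp and to 1.08 and 0.92 with the covariate, which also took Etv4 to -0.31. The replicate block pairs animals by number alone, with 1 mutant and 1 control per number, so it cannot move a difference. The Etv1 differences were thus fixed at 0.77 and 0.68, and those of Etv5 at -0.38 in testis and -0.12 in spleen. Etv5 ran from -0.48 to -0.20 in testis and reached -0.42 in spleen, the lowest both with the deposited values. Etv5 in spleen turned to 0.0073 against wild-type controls only. The causes were not tested. Of the other alternatives, 275 gave the same direction and side of the threshold, or the same size within the spread between animals. They include brain settings of the members, which use the arrays that chose the probes. They also include tissue levels of Etv1 and Etv4, whose probes passed the filter only through brain. For these the count adds no support. Testis and spleen had 0 calls in limma under every alternative. Etv1 and Etv4 were near background in testis and spleen, so a fall in mutants, or a rise that stayed under background, was not detectable there.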
